A study of Mus musculus with 9 samples.

Results

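The glucocorticoid receptor gene Nr3c1, the FoxO factors Foxo1 and Foxo3, the C/EBP factors Cebpb and Cebpd, and 5 genes known to respond to the receptor (Fkbp5, Tsc22d3, Zbtb16, Sgk1 and Ddit4) were followed in mouse gastrocnemius, a calf muscle. These 10 genes were taken by name from textbook knowledge of muscle wasting, out of 55487 genes counted. They and the gene lists below were chosen with earlier results of these data known. RNA with poly-A tails was sequenced from wild-type C57BL/6 mice labelled male, which the study's text gives as C57BL/6J. Control mice (n = 4) stayed in conventional cages. Unloading mice (n = 2) were sampled after 10 days of hindlimb unloading, in which a line from the tail to the cage top lifts the hind legs off the floor while the forelimbs can walk. Reloading mice (n = 3), per the study's text, also had 10 days of unloading and were sampled 1 day after they were put back in their home cage. No age was given for these mice in the sources used here, and the procedure as described restrains the animals and tapes a line to the tail. That handling and the unloading of the leg cannot be told apart in this design, and 2 Unloading libraries bear on 2 of the 3 comparisons.

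Glucocorticoid hormone enters the cell and binds the receptor, which is held by chaperones of the heat shock family until then, and the receptor moves to the nucleus and turns genes on or off. FoxO factors are kept out of the nucleus when insulin or growth factor signalling activates Akt, and when that signal falls they switch on genes of protein breakdown and autophagy. The receptor and FoxO are both known to act on the muscle ubiquitin ligases Fbxo32 and Trim63, and C/EBP factors are inflammation- and hormone-responsive regulators that glucocorticoids can raise.

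Library totals ran from 9252443 to 19612101 read pairs in genes, so that a single read pair was worth between 0.0546 and 0.113 CPM, the unit of depth-scaled counts used here (counts per 1000000 read pairs after TMM scaling, in which a trimmed mean of log ratios sets the library size). Reloading libraries differed from the rest in make-up. Their TMM factors were 1.11 to 1.13 against 0.928 to 0.960 elsewhere, and mitochondrial genes took 6.49% to 6.75% of counts against 9.36% to 10.6%. The summed level of 10 myofibre markers was 139545 to 153682 CPM in Reloading, 202433 to 208799 in Unloading and 193885 to 211495 in Control. The sum of 15 macrophage markers was 201 to 225 CPM in Reloading, 106 to 108 in Unloading and 103 to 127 in Control. The sum of 10 endothelial markers was 397 to 478 CPM, 242 to 252 and 246 to 278 in the same order. T cell markers summed to at most 1.49 CPM and neutrophil markers to at most 8.23 CPM in any library, with the neutrophil genes Ly6g and Cxcr2 at 0 in Unloading. Control 2 and Reloading 1 stood apart with skin markers at 318 and 145 CPM, against 5.36 to 8.38 CPM in the other libraries, and Krt1, Krt2 and Krt14 were at 0 in Unloading. Xist had at most 5 counts and the Y-linked Ddx3y at least 1013 in every library, as in male tissue. In whole muscle, fewer cells of a type and less RNA per cell cannot be told apart, and the part of these shifts in the results below was not tested.

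Per kilobase of exon, Tsc22d3 and Sgk1 had the highest means of the 10 genes in all 3 groups, and Foxo1 had the lowest. In Reloading the values of Sgk1 (28.4 ± 2.90, SD, n = 3) overlapped those of Cebpb (26.2 ± 1.86). In Control, Tsc22d3 stood at 44.7 ± 11.1 CPM per kilobase and Sgk1 at 38.6 ± 4.03 (SD, n = 4), and their libraries overlapped. Cebpb followed at 21.7 ± 3.06, below every Sgk1 value. Nr3c1 (14.2 ± 1.05), Ddit4 (12.3 ± 9.68) and Zbtb16 (10.6 ± 4.20) came next, each overlapping its neighbour. The lowest group was Fkbp5 at 4.59 ± 2.13, Foxo3 at 3.67 ± 0.207, Cebpd at 3.45 ± 0.977 and Foxo1 at 1.88 ± 0.315 CPM per kilobase. Neighbours in that order overlapped except that Foxo1 lay below every Cebpd value. In Unloading, Cebpd (10.7 ± 5.67, SD, n = 2) and Fkbp5 (8.96 ± 1.37) both stood above Foxo3 (4.08 ± 0.375). In Reloading, Fkbp5 had the next to lowest level, 2.64 ± 0.860 (SD, n = 3), and its values overlapped those of Foxo3 and Foxo1.

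**Figure D1:**
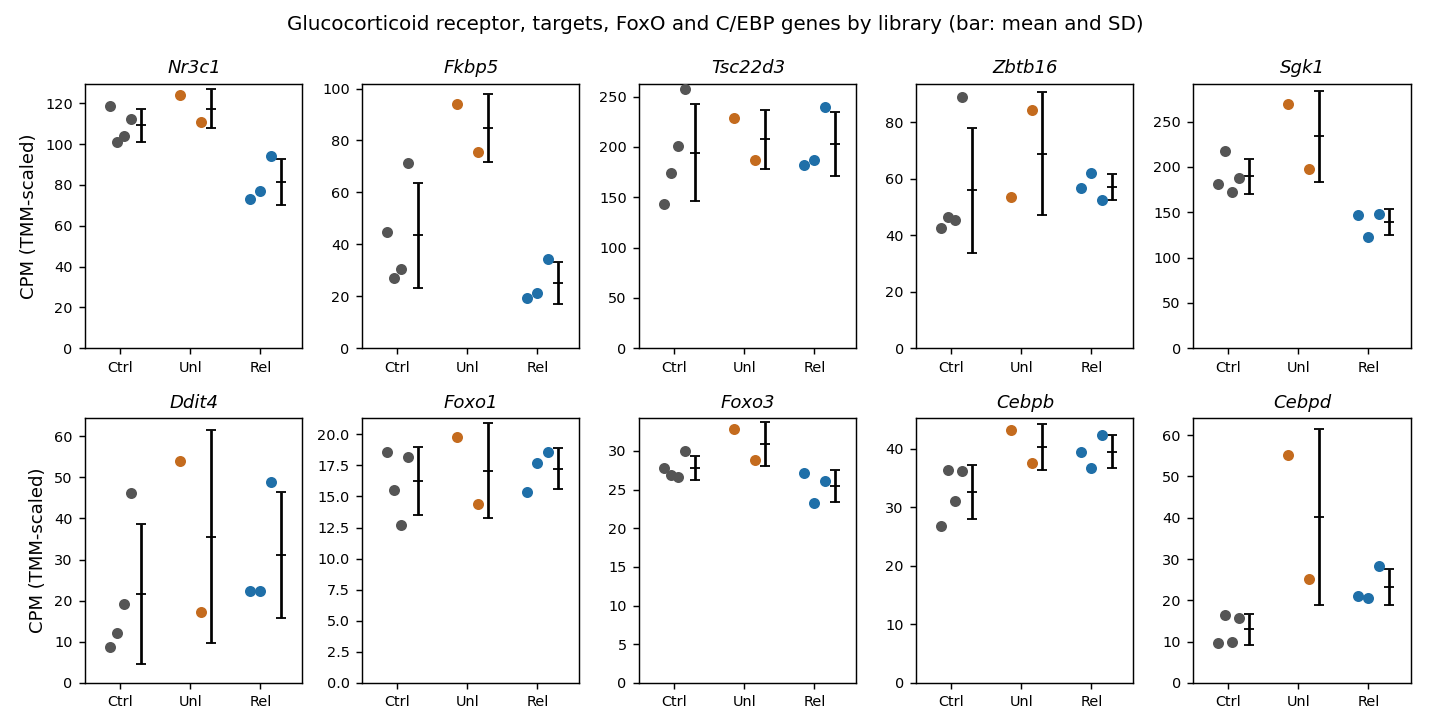
Level of each of the 10 genes in CPM (TMM-scaled, axes from 0) in the Control (Ctrl, 4), Unloading (Unl, 2) and Reloading (Rel, 3) libraries, each point 1 library, with the group mean and SD beside them. Fkbp5 and Sgk1 sit lowest in Reloading, Cebpd sits lowest in Control, and the Unloading libraries of Ddit4 lie as far apart as 53.9 and 17.3 CPM.

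Nr3c1, the receptor itself, was similar in Control and Unloading and lower after 1 day of reloading. It was at 119, 101, 104 and 112 CPM in Control 1 to Control 4, at 124 and 111 CPM in Unloading, and at 73.3, 77.0 and 94.1 CPM in Reloading. Every Reloading library lay below every library of the other groups. By edgeR's quasi-likelihood test with Benjamini-Hochberg adjustment over 14851 genes, used throughout, the log2 fold change of Reloading against Unloading was -0.53 ± 0.10 (SE, adjusted p = 0.00119). Against Control it was -0.42 ± 0.090 (adjusted p = 0.00154). Unloading against Control gave 0.11 ± 0.10 (adjusted p = 0.544). With library totals in place of TMM, which moves the median log2 fold change of all genes on reloading to 0.27 (against Unloading) and 0.25 (against Control), the change against Control became -0.18 (adjusted p = 0.104) and that against Unloading -0.28 (adjusted p = 0.0427).

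Among the 10 genes, all of which could be tested, Fkbp5 and Cebpd were higher in Unloading than in Control and none was lower, while over all genes tested 4.4% were called higher and 5.5% lower. Nr3c1, Fkbp5, Sgk1, Foxo3 and Cebpd were lower in Reloading than in Unloading and none was higher, beside 18.5% of all genes called higher and 19% lower. Against Control, Reloading had Cebpb and Cebpd higher and Nr3c1, Fkbp5 and Sgk1 lower, beside 22.1% of all genes called higher and 21.3% lower. The 0 counts of both comparisons with Unloading were also 0 at an unadjusted p under 0.05 and with DESeq2's Wald test. That test called Cebpd in the first comparison, Nr3c1, Fkbp5 and Sgk1 in the second, and Nr3c1 and Sgk1 in the third. The comparisons share samples, since Unloading is the baseline of one and the tested group of another. The median log2 fold change of the 10 genes was 0.30, -0.28 and 0.045 in the order Unloading against Control, Reloading against Unloading, Reloading against Control, and over all genes it was -0.0038, 0.026 and 0.013. Without Unloading 1 the first of the medians over the 10 genes was 0.063, with none of them called, and the second -0.15. With library totals the second was -0.026 and the third 0.29. Without Unloading 1, the calls over all genes for Unloading against Control fell to 65 higher and 56 lower, from 653 and 817. Unloading 1 was above Unloading 2 for 9 of the 10 genes, Zbtb16 being the exception, and Reloading 3 was the highest Reloading library for 8 of the 10.

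**Figure D2:**
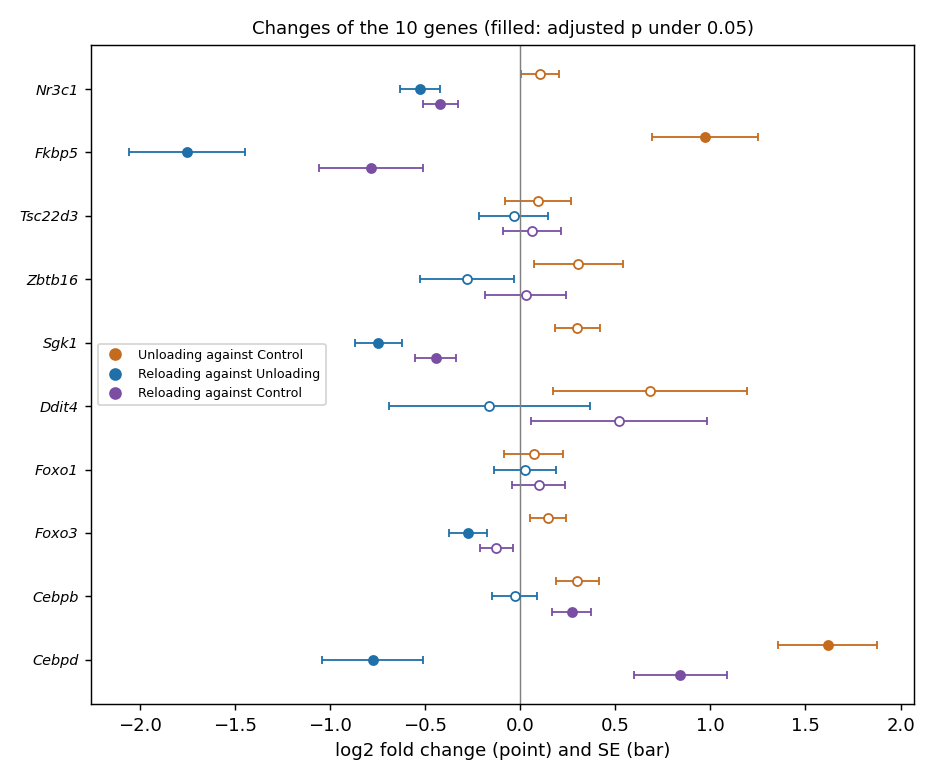
Log2 fold change (point) and its SE (bar) of the 10 genes in the 3 comparisons, with filled points where the adjusted p of edgeR's test was under 0.05. Fkbp5 has the largest fall from Unloading to Reloading (-1.75) and Cebpd the largest rise from Control to Unloading (1.62), while Tsc22d3 and Foxo1 lie near 0 in all 3.

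Fkbp5 (chr17:28399094-28517527, minus strand, GRCm38) encodes an immunophilin that sits in the receptor's chaperone complex, lowers its affinity for hormone and is itself induced by the receptor. Of the 5 receptor targets followed, it had the largest fold difference between group means. Control 1 to Control 4 held 44.9, 27.1, 30.4 and 71.3 CPM, Unloading 1 and Unloading 2 held 94.0 and 75.6 CPM, and Reloading 1 to Reloading 3 held 19.3, 21.3 and 34.3 CPM. Both Unloading libraries were above every other library, with Control 4 close to Unloading 2, and Reloading overlapped with the lower Control libraries. From Unloading to Reloading the level fell 3.37-fold (log2 fold change -1.75 ± 0.30, adjusted p = 0.000413), and this held under all 18 alternative settings, between -2.06 and -1.51. Unloading was 1.96-fold above Control (0.97 ± 0.28, adjusted p = 0.0396), and leaving out Control 1, Control 2, Control 3, Unloading 1, Unloading 2 or Reloading 2 ended that call, with log2 fold changes of 0.79 to 1.12 and adjusted p of 0.0544 to 0.332. DESeq2's Wald test gave 0.98 (adjusted p = 0.166). Reloading against Control gave -0.78 ± 0.27 (adjusted p = 0.0308), which became -0.43 (adjusted p = 0.115) without Control 4 and was also lost without Control 1 (-0.77, adjusted p = 0.0573), Reloading 1 (-0.63, adjusted p = 0.119) or Reloading 2 (-0.68, adjusted p = 0.113), and with library totals (-0.54, adjusted p = 0.108).

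Sgk1 (chr10:21882184-21999903, plus strand) encodes a kinase related to Akt that phosphorylates FoxO factors and ion transport regulators. Control 1 to Control 4 held 181, 218, 172 and 188 CPM, the Unloading libraries 269 and 198 CPM, and the Reloading libraries 147, 123 and 148 CPM. All Reloading libraries were below all others, and Unloading 2 lay within the Control range. Reloading was lower than Unloading by a log2 fold change of -0.75 ± 0.12 (adjusted p = 0.000309), a call that held under all 18 alternatives, and lower than Control by -0.44 ± 0.11 (adjusted p = 0.00362), which was -0.20 (adjusted p = 0.124) with library totals. Unloading against Control gave 0.30 ± 0.12 (adjusted p = 0.121), and 0.51 (adjusted p = 0.0230) without Unloading 2.

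Tsc22d3 (chrX:140539528-140600659, minus strand), also called GILZ, encodes a leucine zipper protein that carries part of the anti-inflammatory action of the receptor. It was at 144, 174, 201 and 257 CPM in Control, 228 and 187 CPM in Unloading and 182, 187 and 239 CPM in Reloading, and the 3 groups overlapped. The log2 fold changes were 0.094 ± 0.17 (Unloading against Control), -0.033 ± 0.18 (Reloading against Unloading) and 0.061 ± 0.15 (Reloading against Control), with adjusted p of 0.779, 0.902 and 0.772. The direction between Reloading and Unloading turned with library totals (0.21).

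Sgk1 and Tsc22d3 are shown with their promoter sequence because both are classical receptor targets, the first lower on reloading and the second past the test in no comparison. Windows of 250 bases before to 50 bases after an annotated start, from RefSeq on GRCm38.p6, matched 7 of the 10 genes in 14 windows. Nr3c1, Zbtb16 and Cebpd had none. They were searched on both strands for the receptor half-site TGTTCT, held by 19.0% of all 32851 windows, the FoxO motif TGTTTAC, held by 3.65%, and the C/EBP motif TTGCNNAA, held by 10.8%. The full receptor site was searched as the half-site AGAACA, any 3 bases, and the half-site TGTTCT, and so contains the half-site motif on each strand. It was found without a mismatch in 3 of the 32851 windows, one of them at Sgk1, with the others at Acnat2 and Gm35041, which were too low to test. The Sgk1 window is chr10:21993640-21993939 on the plus strand, and the site, in capitals, lies 189 to 175 bases before the start. The Tsc22d3 window shown, of several for that gene, is chrX:140600473-140600772 on the minus strand, where a half-site, in capitals, was the only match.
Sgk1: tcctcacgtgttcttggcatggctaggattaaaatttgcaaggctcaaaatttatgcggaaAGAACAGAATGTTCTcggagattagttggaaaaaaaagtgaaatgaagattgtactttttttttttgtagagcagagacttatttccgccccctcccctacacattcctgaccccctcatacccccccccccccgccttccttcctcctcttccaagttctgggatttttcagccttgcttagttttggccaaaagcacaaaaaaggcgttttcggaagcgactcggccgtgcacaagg
Tsc22d3: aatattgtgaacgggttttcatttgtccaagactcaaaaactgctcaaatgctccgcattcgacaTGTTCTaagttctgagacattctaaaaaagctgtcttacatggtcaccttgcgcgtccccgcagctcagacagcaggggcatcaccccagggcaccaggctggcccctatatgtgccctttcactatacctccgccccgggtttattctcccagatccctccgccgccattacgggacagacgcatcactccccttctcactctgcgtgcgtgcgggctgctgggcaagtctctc

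The Sgk1 window also held a further half-site upstream of the full site, and 2 other Sgk1 windows held a half-site each. Another Sgk1 window held a C/EBP match, and a further one held a full receptor site with 2 mismatches, which 1.84% of all windows hold within that limit. The remaining Sgk1 window, the other Tsc22d3 windows and the windows of Fkbp5, Ddit4, Foxo1, Foxo3 and Cebpb held none of the 3 motifs. These are matches of letters within 300 bases, and binding was not measured.

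Zbtb16 and Ddit4, a transcription factor gene and the gene of the mTORC1 inhibitor REDD1, varied widely between libraries of the same group. Zbtb16 (chr9:48654297-48836222, minus strand) was at 42.6, 46.4, 45.3 and 89.1 CPM in Control 1 to Control 4, at 53.4 and 84.4 CPM in Unloading and at 56.8, 61.8 and 52.6 CPM in Reloading. Control 4 was higher than every other library, and without it both Unloading and all Reloading libraries lie above the Controls. The log2 fold change was 0.31 ± 0.24 (adjusted p = 0.446) between Unloading and Control and 0.029 ± 0.21 (adjusted p = 0.926) between Reloading and Control. Without Control 4 these became 0.63 (adjusted p = 0.0164) and 0.35 (adjusted p = 0.0491), and with the Control and Reloading libraries paired by number the second was -0.056. Reloading against Unloading gave -0.28 ± 0.25 (adjusted p = 0.403).

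Ddit4 (chr10:59949669-59951834, minus strand) was at 8.68, 12.1, 19.3 and 46.2 CPM in Control, 53.9 and 17.3 CPM in Unloading and 22.2, 22.3 and 48.7 CPM in Reloading, and the 3 groups overlapped. The log2 fold changes were 0.68 ± 0.51, -0.16 ± 0.53 and 0.52 ± 0.46 in the order Unloading against Control, Reloading against Unloading and Reloading against Control, and none passed the test (adjusted p of 0.434, 0.833 and 0.388). Single libraries decided these values. Without Unloading 1 the first was -0.33 and the second 0.85, and without Control 4 the third was 1.19 (adjusted p = 0.0282). Control 4 was the highest Control for 5 of the 10 genes, Fkbp5, Tsc22d3, Zbtb16, Ddit4 and Foxo3.

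Fkbp5 and Tsc22d3 are both receptor targets, and their ratio needs no scaling between libraries. On the log2 scale, Fkbp5 over Tsc22d3 per exon length was -2.41 and -2.43 in Unloading, -3.85 to -2.80 in Control and -4.36 to -3.93 in Reloading. The 3 groups did not overlap. The ratio of the paired C/EBP genes, Cebpb over Cebpd, was 2.46 to 2.97 in Control, 1.90 to 2.23 in Reloading and 0.96 and 1.89 in Unloading, where the library with the lower value was Unloading 1. Both ratios were chosen after the values were seen and carry no test.

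**Figure D3:**
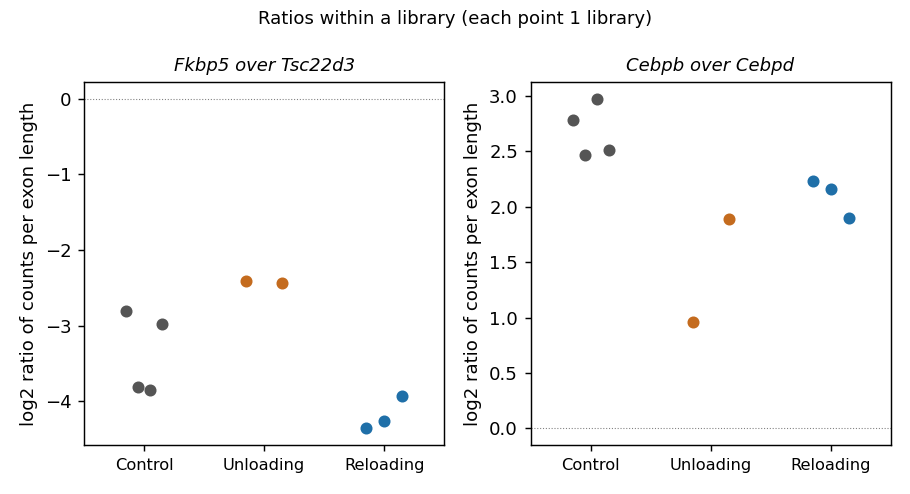
Log2 ratio of counts per exon length of Fkbp5 over Tsc22d3 and of Cebpb over Cebpd, each point 1 library of the Control, Unloading or Reloading group, with 0 (equal levels) as a dotted line. Fkbp5 over Tsc22d3 is highest in Unloading (-2.43 and -2.41) and lowest in Reloading (-4.36 to -3.93), and Cebpb over Cebpd is highest in Control (2.46 to 2.97).

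The FoxO genes changed little. Foxo1 (chr3:52268336-52353221, plus strand) encodes one of the main FoxO factors of muscle and was at 18.6, 15.5, 12.7 and 18.2 CPM in Control, 19.8 and 14.4 CPM in Unloading and 15.4, 17.7 and 18.6 CPM in Reloading. The groups overlapped throughout, and the log2 fold changes were 0.071 ± 0.16, 0.027 ± 0.16 and 0.098 ± 0.14 in the same order of comparisons (adjusted p of 0.821, 0.911 and 0.603). Foxo3 (chr10:42181841-42276755, minus strand), the factor best known for inducing autophagy and ubiquitin ligase genes in muscle, was at 27.7, 26.9, 26.6 and 30.0 CPM in Control, 32.9 and 28.8 CPM in Unloading and 27.2, 23.2 and 26.1 CPM in Reloading. Reloading lay below Unloading without overlap, by a log2 fold change of -0.27 ± 0.099 (adjusted p = 0.0421). With library totals this was -0.026 (adjusted p = 0.851), and leaving out Control 1, Unloading 1, Reloading 2 or Reloading 3 also ended the call, with log2 fold changes of -0.29 to -0.18 and adjusted p of 0.0509 to 0.295. Foxo3 gave 0.15 ± 0.095 in Unloading and -0.13 ± 0.086 in Reloading, each against Control (adjusted p of 0.351 and 0.257), and the latter turned to 0.11 with library totals. Of the bases counted for Foxo1, 7.78% are shared with a gene on the other strand that had 0 counts.

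Cebpd (chr16:15887286-15891031, plus strand), an acute-phase C/EBP factor, had the largest rise of the 10 genes in Unloading. Control 1 to Control 4 were at 9.70, 16.4, 9.86 and 15.8 CPM, Unloading 1 and Unloading 2 at 55.2 and 25.2 CPM, and Reloading 1 to Reloading 3 at 21.0, 20.5 and 28.3 CPM. Every Unloading and Reloading library was above every Control, and Unloading 2 lay among the Reloading libraries. Unloading was 3.07-fold above Control (log2 fold change 1.62 ± 0.26, adjusted p = 0.00234), which became 0.96 (adjusted p = 0.0888) without Unloading 1. Reloading was above Control by 0.84 ± 0.25 (adjusted p = 0.0118), or 0.67 (adjusted p = 0.0613) without Reloading 3. The fall from Unloading to Reloading, -0.77 ± 0.27 (adjusted p = 0.0322), rested on Unloading 1, since without it the value was -0.12 (adjusted p = 0.763). It was also lost without Reloading 1 (-0.70, adjusted p = 0.0837) or Reloading 2 (-0.69, adjusted p = 0.0987), and with library totals (-0.53, adjusted p = 0.118).

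Cebpb (chr2:167688915-167690418, plus strand), which binds the same motif as Cebpd, moved less. It was at 26.7, 36.3, 31.1 and 36.2 CPM in Control, 43.1 and 37.5 CPM in Unloading and 39.4, 36.7 and 42.3 CPM in Reloading, and the Controls lay below all other libraries by a narrow margin. Reloading was above Control by a log2 fold change of 0.27 ± 0.10 (adjusted p = 0.0408). That call was lost without Control 1, Control 3, Unloading 2, Reloading 1 or Reloading 3, with values of 0.19 to 0.27 and adjusted p of 0.0504 to 0.148. Unloading against Control was of the same size, 0.30 ± 0.11, with an adjusted p of 0.106, and Reloading against Unloading was -0.028 ± 0.12 (adjusted p = 0.870). Of the bases counted, 20.7% in Cebpb and 15% in Cebpd are shared with a gene on the other strand, Peds1 (1471 counts in all libraries) and Spidr (168 counts), and the counting did not use strand. In Unloading, where Cebpd was highest on average, the macrophage marker sum (106 to 108 CPM) lay within the Control range, and of the endothelial sums (242 and 252 CPM) one lay below and one within it. The sum of 10 smooth muscle markers was 5069 to 5133 CPM in Unloading, 3952 to 4153 in Control and 4342 to 4865 in Reloading, without overlap. Of its 9 tested genes 2 were higher in Unloading than in Control and none lower (4.4% and 5.5% of all genes). Against Unloading, Reloading had 7 of the 9 higher and 1 lower (18.5% and 19% of all genes), with a median log2 fold change of 1.02. Against Control it had 8 higher and none lower (22.1% and 21.3%), so the sum does not show how most of these genes moved. The sum of 8 adipocyte markers was 526 to 686 CPM in Unloading, 482 to 532 in Control and 511 to 590 in Reloading, and none of the 8 was called between Unloading and Control. In Reloading 12 of the 15 macrophage markers were higher than in Unloading and none lower (18.5% and 19% of all genes). Of 10 fibroblast markers 5 were higher and 2 lower in that comparison, and 2 and 2 in Unloading against Control (4.4% and 5.5%). The part of any of these cell types in the levels of Cebpb and Cebpd was not tested.

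Of 20 tested chaperones and cofactors that hold or assist the receptor, 1 was higher and 3 lower in Unloading than in Control (4.4% and 5.5% of all genes), 8 and 2 in Reloading against Unloading (18.5% and 19%), and 7 and 2 in Reloading against Control (22.1% and 21.3%). With library totals the last pair of counts became 12 and 0, and those against Unloading 9 and 1. Hsp90aa1, the inducible form of the chaperone that holds the unliganded receptor, rose by a log2 fold change of 2.57 ± 0.15 over Unloading (adjusted p = 1.74e-08). Stip1, which passes the receptor from Hsp70 to Hsp90, rose by 1.40 ± 0.098, and the Hsp70 family chaperone Hspa8 by 1.41 ± 0.11. H6pd, which supplies the cofactor for hormone activation by Hsd11b1, fell by 0.74 on the log2 scale, and the cochaperone Bag1 fell by 0.43, or by 0.18 (adjusted p = 0.0588) with library totals. In Unloading against Control, H6pd was higher (0.56 ± 0.088) and Hspa8 (-0.47), the cyclophilin Ppid (-0.47) and Stip1 (-0.30) were lower. Without Unloading 1 none of the 20 was lower (Hspa8 -0.38, Ppid -0.47 and Stip1 -0.24, with adjusted p of 0.215, 0.0542 and 0.375), and the call of Stip1 was also lost without Control 2, Control 3, Control 4, Unloading 2 or Reloading 2 (-0.37 to -0.29). The median of the 20 was -0.0068, 0.026 and 0.012 in the 3 comparisons, close to that of all genes. Hsd11b1 itself was low, at means of 3.64 to 4.66 CPM, and Nr3c2, the related mineralocorticoid receptor, at 12.2 to 12.8 CPM, and neither passed the test in any comparison (adjusted p of at least 0.251).

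Further receptor-responsive genes were counted from a list of 30, of which 28 could be tested. In Unloading against Control 7 were higher and none lower (4.4% and 5.5% of all genes), with a median log2 fold change of 0.28. At an unadjusted p under 0.05, 1 was lower, and DESeq2's Wald test had 9 higher and 0 lower. Of the 7 called, the largest rises were those of Cited2, a transcriptional coregulator (1.46 ± 0.19, adjusted p = 0.000494), and Cdkn1a, a cell cycle inhibitor (1.43 ± 0.20, adjusted p = 0.000928). The clock gene Per1 came next among them (0.97 ± 0.15, adjusted p = 0.00196). The number higher depended on single libraries, being 2 without Unloading 1, 4 without Control 1 or Control 3, and 11 without Control 4. Without Unloading 1 the median was 0.15, and Per1 (0.77, adjusted p = 0.0678) lost its call. On return to load the list split, with 6 higher and 6 lower against Unloading (18.5% and 19% of all genes). The metallothioneins Mt2 (2.11 ± 0.49) and Mt1 (1.84 ± 0.16) and the AMP deaminase Ampd3 (1.86 ± 0.14) rose, and Pik3r1, a regulatory subunit of PI3 kinase (-1.12 ± 0.24), Cited2 (-1.07 ± 0.20) and Klf9 (-0.96 ± 0.097), a transcription factor gene, fell. The Unloading libraries disagreed on Mt2, which was at 4.25 without Unloading 1 and at 1.12 (adjusted p = 0.0401) without Unloading 2. Pik3r1 was at -0.61 (adjusted p = 0.0811) without Unloading 1. Klf15, a factor of amino acid breakdown, fell too (-0.81 ± 0.17, or -0.54 without Unloading 1), but Per1 did not pass the test (0.23 ± 0.16, adjusted p = 0.282). The number lower was 10 without Unloading 2 or Reloading 3, and with library totals 12 were higher and 6 lower. Against Control, 12 were higher and 5 lower in Reloading (22.1% and 21.3% of all genes), or 16 and 3 with library totals. Among these calls Mt2 had the largest rise (2.78 ± 0.45) and Timp4, an inhibitor of matrix proteases, the largest fall (-0.71 ± 0.17).

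**Figure D4:**
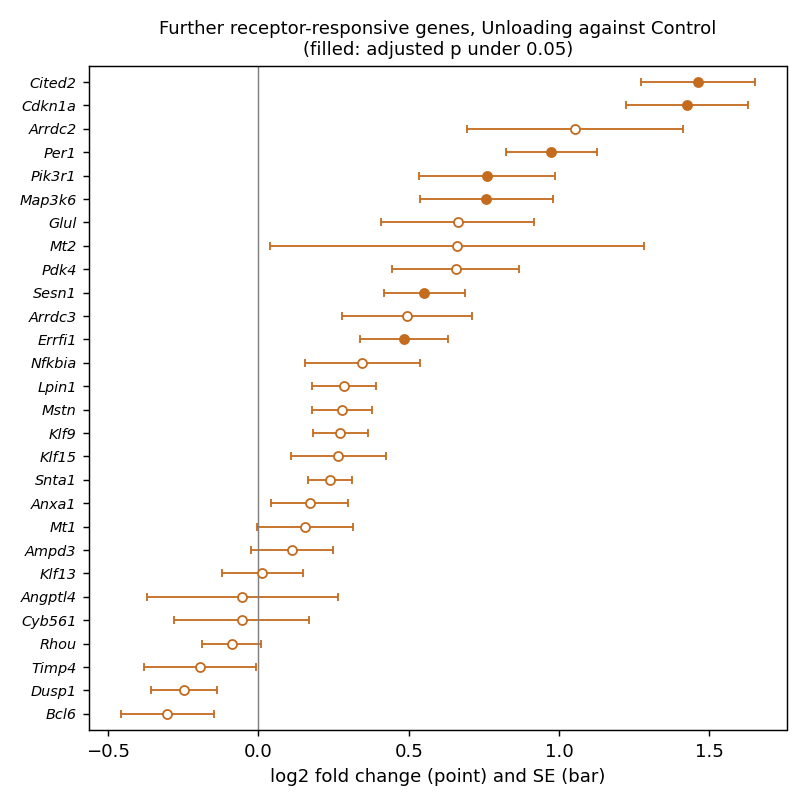
Log2 fold change (point) and its SE (bar) of Unloading against Control for the 28 further receptor-responsive genes that could be tested, ordered by size, with filled points where the adjusted p was under 0.05. The 7 filled points are all on the higher side, led by Cited2 (1.46) and Cdkn1a (1.43).

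FoxO-regulated genes, all 38 of them tested, were more often called lower than higher on reloading with TMM scaling. In Reloading against Unloading 19 were lower and 6 higher, with a median of -0.30, beside 19% and 18.5% of all genes and a median of 0.026. With library totals, 15 were lower and 13 higher and the median was -0.048, so that the balance of directions depends on the scaling. The lower genes were led by Cited2 (-1.07 ± 0.20), Sesn3 (-0.94 ± 0.12), whose product restrains mTORC1, and the cyclin gene Ccng2 (-0.91 ± 0.13). Among the genes of autophagy and lysosomal breakdown on this list, Gabarapl1 (1.22 ± 0.11) and Sqstm1 (0.50 ± 0.11) rose. Ulk1, Bnip3, Bnip3l, Ulk2, Pink1, Map1lc3b, Ctsl and Becn1 fell, with log2 fold changes from -0.88 (Ulk1) to -0.45 (Becn1). Atg4b (0.18), Atg12 (0.075) and Pik3c3 (-0.017) did not pass the test. With library totals Becn1 lost its call (-0.20, adjusted p = 0.0819), while Atg4b (0.43) and Atg12 (0.32) passed the test. Psmd11, a proteasome subunit, rose by 1.22 ± 0.090 and catalase, Cat, by 0.83 ± 0.12. The ubiquitin ligases moved in opposite directions, with Fbxo32 at -0.67 ± 0.13 (adjusted p = 0.000763) and Trim63 at 0.50 ± 0.14 (adjusted p = 0.00976), the latter lost without Unloading 2 (0.45, adjusted p = 0.0780).

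**Figure D5:**
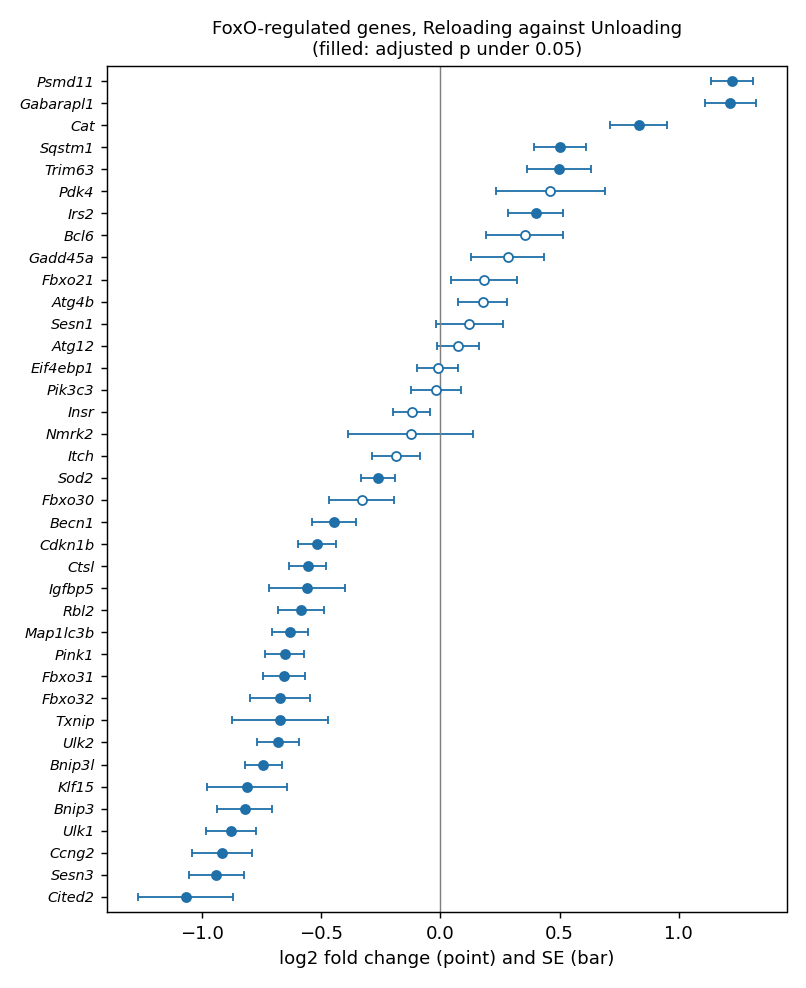
Log2 fold change (point) and its SE (bar) of Reloading against Unloading for the 38 FoxO-regulated genes, ordered by size, with filled points where the adjusted p was under 0.05. Of the filled points 6 lie above 0, led by Psmd11 and Gabarapl1 (both 1.22), and 19 below, led by Cited2 (-1.07).

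After 10 days of unloading 5 of the 38 FoxO-regulated genes were higher than in Control and none lower (4.4% and 5.5% of all genes), with a median of 0.12, and 1 was lower at an unadjusted p under 0.05 and by DESeq2's Wald test. Without Unloading 1 there was 1 higher. Of the 5 called with all libraries, Cited2 (1.46), Sesn1, an inhibitor of mTORC1 (0.55 ± 0.14), and Ctsl (0.41 ± 0.073) had the largest rises. Sesn1 (0.28) and Ctsl (0.33) lost their calls without Unloading 1. Fbxo32 gave 0.26 ± 0.12 (adjusted p = 0.185), Trim63 0.064 ± 0.13 (adjusted p = 0.799) and Pdk4, a brake on glucose oxidation, 0.66 ± 0.21 (adjusted p = 0.0625). Against Control, Reloading had 10 higher and 18 lower (22.1% and 21.3% of all genes), or 15 higher and 10 lower with library totals. Pdk4 rose (1.12 ± 0.19, adjusted p = 0.000217), and Ccng2 (-0.87 ± 0.11), Sesn3 (-0.84 ± 0.10) and Ulk2 (-0.78 ± 0.077) had the largest falls.

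Among 23 tested genes of the FoxO family and its regulators, Akt1, the kinase that excludes FoxO factors from the nucleus, was higher in Unloading than in Control (0.39 ± 0.069, adjusted p = 0.00392, or 0.40 with adjusted p = 0.0535 without Unloading 1) and higher again in Reloading than in Unloading (0.43 ± 0.073, adjusted p = 0.000308). The family member Foxo4 fell on reloading (-0.73 ± 0.096), and Foxo6 was lower in Unloading than in Control (-0.79 ± 0.16, or -0.76 with adjusted p = 0.101 without Unloading 1). The AMP kinase subunits moved apart, with Prkaa1 at 0.84 ± 0.11 and Prkaa2 at -0.54 ± 0.11 in Reloading against Unloading. Rictor, a subunit of mTORC2, fell by 0.58 on the log2 scale. Over all genes 4.4% were higher and 5.5% lower in Unloading against Control, 18.5% and 19% in Reloading against Unloading, and 22.1% and 21.3% in Reloading against Control. Of these 23 genes 3 were higher and 2 lower in the first comparison, and these calls did not hold without Unloading 1. In the second, 4 were higher and 7 lower, or 2 and 6 without Reloading 2 and 5 and 4 with library totals. The median of the second was -0.13, or 0.12 with library totals and -0.22 without Unloading 1. In the last, 5 were higher and 10 lower, or 9 and 2 with library totals.

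Of 13 tested C/EBP family members, partners and acute-phase genes, 3 were higher and none lower in Unloading than in Control (4.4% and 5.5% of all genes). They were Lcn2, an iron-binding acute-phase protein (1.95 ± 0.38, adjusted p = 0.00580), the interleukin-6 receptor gene Il6ra (0.82 ± 0.17) and Trib2 (0.54 ± 0.15), and without Unloading 1 only Trib2 kept its call (Lcn2 2.05, adjusted p = 0.0635, and Il6ra 0.60, adjusted p = 0.169). Trib2 was in turn lost without Control 1, Control 3, Control 4 or Unloading 2 (0.19 to 0.54, adjusted p of 0.0633 to 0.499). At an unadjusted p under 0.05, 2 were lower, and 0 by DESeq2's Wald test. In Reloading against Unloading 5 were higher and 1 lower (18.5% and 19% of all genes), with Hp, the haptoglobin gene (1.75 ± 0.42), the cytokine feedback gene Socs3 (1.43 ± 0.31) and its inducer Stat3 (1.02 ± 0.10) leading and Il6ra (-1.11 ± 0.18) falling. Hp was at 1.48 (adjusted p = 0.0620) without Unloading 2. Against Control 7 were higher and 2 lower (22.1% and 21.3% of all genes), or 8 and 0 with library totals, with Socs3 at 2.09 ± 0.28. Il6, Saa3 and Cebpe were too low to test.

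Of 12 tested inhibitors of mTORC1 signalling, 2 were higher in Unloading than in Control, Sesn1 and Deptor (0.40 ± 0.099), beside 4.4% of all genes. None was lower (5.5% of all genes), also at an unadjusted p under 0.05 and by DESeq2's Wald test. Sesn1 was lost without Unloading 1 (0.28, adjusted p = 0.397), and Deptor without Unloading 1, Unloading 2 or Control 3 (0.38 to 0.41, adjusted p of 0.0503 to 0.174). In Reloading against Unloading 4 were lower and none higher (19% and 18.5% of all genes), among them Sesn3, the Ddit4 paralog Ddit4l (-0.63 ± 0.12, or -0.40 without Unloading 2) and Deptor (-0.49 ± 0.10), while 1 was higher at an unadjusted p under 0.05 and 0 by DESeq2's Wald test. With library totals 2 were lower and 3 higher. Against Control 1 was higher (Sesn1, 0.67 ± 0.12) and 1 lower (Sesn3), beside 22.1% and 21.3% of all genes. With library totals these counts were 5 and 1, and with the libraries paired by number 1 and 2.

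Of 12 tested paralogs of the 10 genes, 1 was lower in Unloading than in Control (Foxo6, -0.79, or -0.76 with adjusted p = 0.101 without Unloading 1), 1 was higher and 2 lower in Reloading than in Unloading, and 2 were higher and 4 lower against Control, or 4 and 1 with library totals. Over all genes 5.5% were lower in the first comparison, 18.5% higher and 19% lower in the second, and 22.1% higher and 21.3% lower in the last. Fkbp4, which competes with Fkbp5 for the receptor complex, rose a little in Reloading against Unloading (0.29 ± 0.078, adjusted p = 0.00847), where Fkbp5 fell. With library totals 6 paralogs were higher and 2 lower in that comparison, and without Unloading 1 none was higher (Fkbp4 0.22, adjusted p = 0.103). The Tsc22d3 paralog Tsc22d1 was lower in Reloading than in Control (-0.24 ± 0.073, adjusted p = 0.0153), or -0.17 (adjusted p = 0.0921) without Reloading 1.

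Genes whose pattern over the 9 libraries was closest to that of a member were found among 9872 genes by the root mean square difference of centred log2 CPM. For Fkbp5 they were the glucose transporter gene Slc2a3 (0.190) and the acyl-CoA synthetase gene Acsl3 (0.315). For Sgk1 they were Slc16a10 (0.117) and Gfpt2 (0.119), and for Nr3c1 Efcab2 (0.0358) and Zfyve9 (0.0489). Cebpd had no gene nearer than Ifi207 (0.299) and Gm37422 (0.348). For Foxo3 they were Psmc1 (0.0442) and Ccdc47 (0.0470), and for Cebpb Rrnad1 (0.0591) and Mxd4 (0.0593). Small differences go with genes that vary little, so these distances do not compare between members.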

How the data were processed

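The 10 genes and the gene lists were chosen with earlier results of these data known. Per the submitters' processing notes, reads were aligned with STAR 2.7.3a to GRCm38.p6 and counted with featureCounts 2.0.3. The authors deposited raw counts of read pairs for 55487 genes. They also deposited DESeq2 tables of their comparisons, holding fold changes and p-values, which were not used beyond the pairing of gene identifiers with symbols. The study's methods describe single reads and female mice, the labels paired ends and males.

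Counts were tested with edgeR 4.0.16 in R 4.3.3. Genes were kept by filterByExpr (minimum count 10, minimum total 15), leaving 14851. Libraries were scaled by TMM and fitted together with group as the only term by the quasi-likelihood F-test (two-sided, threshold 0.05 after Benjamini-Hochberg adjustment). The common biological coefficient of variation was 0.0927. The alternatives were library totals, DESeq2 1.42.0 size factors or its Wald test, no filter, a robust fit, only the groups compared, replicate blocks, and leaving out each library or both libraries with skin transcripts. The fit was tested on simulated counts with 200 genes changed per comparison, in random directions. That setting holds no shift in make-up like that of Reloading, so it does not bear on the choice of scaling. All 10 genes passed the filter, and 216 of 240 symbols in the lists and marker sets were tested. The labels number the libraries as replicates and name no animals. The tests set each group difference against the spread between these samples, which may in part be technical. Named list genes are up to 3 higher and 3 lower by fold change among calls per list and comparison, with a few textbook targets. Some genes are in more than 1 list, so the list counts are not separate evidence. Among these, Cited2 and Pdk4 are in the receptor and FoxO lists, and Sesn1 and Sesn3 in the FoxO and mTORC1 lists. Foxo4 and Foxo6 are in the FoxO family and paralog lists, Ddit4l in the mTORC1 and paralog lists, and Fkbp4 in the chaperone and paralog lists. The paralog calls in Reloading against Unloading (Fkbp4, Foxo4 and Ddit4l) are thus all counted in another list too. The autophagy genes of the FoxO list in Reloading against Unloading were grouped and named after their values were seen. Calls over all genes by DESeq2's Wald test leave out genes it gives no adjusted p.

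Sample description numbers pair Control 2, 3 and 4 with Reloading 1, 2 and 3. The deviations of these pairs from their group means correlated across genes (r of 0.361, 0.143 and 0.155), so the fit with this pairing is given beside Reloading against Control where it changes a call, a direction or a count by over 1.5 times. All other values come from the fit without it. The first pair are the libraries with skin transcripts.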

Additional observations from a re-analysis of the deposited data

Results flagged for a closer look

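Zbtb16 in Control 4 stood at 89.1 CPM, far above the next Control at 46.4 CPM, and the gap took 0.918 of the whole range of the 4 Controls. Its values in the other groups, and the changes without Control 4, are given with Zbtb16 above. By chance about 1 in 20 groups is singled out by this criterion, and 10 genes were looked at in 4 Controls. The libraries are samples of whole muscle, and the source of the high value was not tested.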

How the results depend on the processing

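Across 18 alternatives and 30 gene-by-comparison values, 443 kept their direction and side of the threshold, 48 lost a call, 16 gained one and 33 changed direction. The number of the 10 genes called for Unloading against Control, 2, was 1 with DESeq2's Wald test, 6 with no filter, 1 with the robust fit, 4 with the block by title number, 1 without both libraries with skin transcripts and 0 to 3 with 1 library left out. For Reloading against Unloading, 5, it was 3 with library totals, 3 with the Wald test and 3 to 5 with 1 library left out. For Reloading against Control, 5, it was 2 with library totals, 2 with the Wald test, 3 with the robust fit and 3 to 6 with 1 library left out. The causes were not tested. Every change of direction concerned a value without a call. With library totals, Reloading against Unloading turned to 0.21 for Tsc22d3, 0.078 for Ddit4 and 0.22 for Cebpb, and Reloading against Control to 0.11 for Foxo3. The Wald test gave -0.0041 for Foxo1, Reloading against Unloading. Without both skin libraries Reloading against Unloading was 0.037 for Tsc22d3 and 0.028 for Ddit4, and Reloading against Control was -0.052 for Zbtb16. With 1 library left out, Unloading against Control ran from -0.054 to 0.26 for Tsc22d3, -0.071 to 0.63 for Zbtb16, -0.33 to 1.36 for Ddit4 and -0.16 to 0.29 for Foxo1. Reloading against Unloading ran from -0.18 to 0.11 for Tsc22d3, -0.57 to 0.088 for Zbtb16, -0.79 to 0.85 for Ddit4, -0.20 to 0.26 for Foxo1 and -0.14 to 0.067 for Cebpb. Reloading against Control ran from -0.074 to 0.23 for Tsc22d3, -0.074 to 0.35 for Zbtb16 and -0.016 to 0.17 for Foxo1. The replicate block by description number turned Zbtb16 in Reloading against Control to -0.056 and changed no call of the 10 genes in that comparison. That block gave calls for Ddit4 in Unloading against Control (1.20) and Zbtb16 in Reloading against Unloading (-0.60), where same-numbered libraries correlated little (r of 0.0172 to 0.0752), and lost Foxo3 (-0.23) and Cebpd (-0.59) there. The block by title number, whose pairs correlated from -0.201 to 0.0752, gave calls for Zbtb16 (0.58) and Ddit4 (1.67) in Unloading against Control and for both in Reloading against Control (0.35 and 1.17), and lost Fkbp5 there (-0.43) and Cebpd in Reloading against Unloading (-0.77). Calls over all genes for Reloading against Unloading, 2743 higher and 2819 lower, became 5250 and 1090 with library totals. With 2 Unloading libraries, changes of the size seen for Foxo1 are within the spread between libraries.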
